A study of Mus musculus with 6 samples.

Results

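The genes that carry glucose into the cell, break it down to pyruvate and move lactate out were followed in megakaryocytic-erythroid progenitors (MEPs), the marrow cells that form both platelet-producing megakaryocytes and red cells. The set has 34 genes, taken by symbol from the 52459 genes of the deposited count table, and each of the 34 had 1 row there. It covers 10 families of paralogs, from the glucose transporters to the pyruvate dehydrogenase kinases, and 7 genes that stand alone at their step. Of the 34 genes, 32 passed a filter on low counts, and Eno2 and Pdk4 did not. The libraries compare wild-type (WT) mice with Tmprss6-/- (KO) mice, which the title of the series describes as a condition of iron shortage. Tmprss6 is a liver protease that restrains the iron hormone hepcidin. Each genotype has 3 libraries, and each library pools sorted cells from 3 mice. The sort gate was the same for both genotypes: cKit+ and CD150+ cells without lineage markers, Sca, Fc gamma receptors, CD105 or CD41. The sources used here do not give strain, age, sex or the design of the knockout allele.

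Glycolysis turns glucose into pyruvate in the cytosol and yields ATP without oxygen. Hexokinase, phosphofructokinase and pyruvate kinase catalyse its regulated, one-way steps, and most steps are served by paralogs that tissues use in different mixtures. Mature red cells lack mitochondria and live on glycolysis alone, and they also use a side branch that makes bisphosphoglycerate, a ligand that loosens the hold of hemoglobin on oxygen. Lactate dehydrogenase recycles pyruvate to lactate, monocarboxylate transporters export it, and pyruvate dehydrogenase kinases limit the entry of pyruvate into mitochondria. Many of these genes are known targets of hypoxia-inducible factors, which bind the letters ACGTG, and of MYC, which binds CACGTG.

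Promoter sequence is shown for Ldha, the most abundant gene of the set, and for 3 of the 4 genes whose KO libraries all lay above all WT libraries. The other of these 4 genes, Bpgm, is not shown, and its window held none of the motifs marked below. Ldha and Pklr have further windows, and the window with a match is shown. No window of Pklr held the motif marked in the first 3 windows, and a different motif is marked there. RefSeq windows on GRCm38.p6 were found for 33 of the 34 genes, all but Slc2a3. Each window holds the 250 bases before an annotated transcript start, written 5′ to 3′ on the strand of the gene, here the plus strand in each case. Capitals mark ACGTG read on either strand, which includes every CACGTG, in the first 3 windows.
Ldha (chr7:46845554-46845803): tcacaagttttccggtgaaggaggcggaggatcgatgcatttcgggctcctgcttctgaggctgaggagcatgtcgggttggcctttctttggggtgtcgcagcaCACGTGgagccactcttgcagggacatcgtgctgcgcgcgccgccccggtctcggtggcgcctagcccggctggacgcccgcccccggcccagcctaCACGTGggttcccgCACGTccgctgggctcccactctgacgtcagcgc
Pgam1 (chr19:41911621-41911870): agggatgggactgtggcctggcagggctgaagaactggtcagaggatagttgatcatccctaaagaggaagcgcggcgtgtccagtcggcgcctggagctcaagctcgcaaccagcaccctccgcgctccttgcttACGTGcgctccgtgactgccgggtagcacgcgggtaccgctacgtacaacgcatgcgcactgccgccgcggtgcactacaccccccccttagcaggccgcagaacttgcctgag
Slc16a3 (chr11:120948817-120949066): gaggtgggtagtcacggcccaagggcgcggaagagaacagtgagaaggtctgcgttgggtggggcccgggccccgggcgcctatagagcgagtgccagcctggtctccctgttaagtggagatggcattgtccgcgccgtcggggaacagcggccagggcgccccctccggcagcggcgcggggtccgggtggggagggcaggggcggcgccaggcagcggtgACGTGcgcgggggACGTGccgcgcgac
In the window of Pklr, the pyruvate kinase of liver and red cells, capitals mark AGATAA, a form of the site bound by GATA factors.
Pklr (chr3:89135892-89136141): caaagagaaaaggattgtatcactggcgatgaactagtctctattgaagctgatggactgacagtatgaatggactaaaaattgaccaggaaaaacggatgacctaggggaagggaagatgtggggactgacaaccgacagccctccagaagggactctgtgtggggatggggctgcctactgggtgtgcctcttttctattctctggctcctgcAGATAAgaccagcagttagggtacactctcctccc

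The Ldha window holds CACGTG at positions -145 and -48, counted from the transcript start, and a further ACGTG match at -34. Slc16a3 has ACGTG at -27 and -14, Pgam1 at -114, and Pklr has AGATAA at -35. ACGTG on either strand occurred in 20 of the 53 windows of the set (37.7%), against 16.6% of all 32851 windows of this length. CACGTG, each match of which also counts as ACGTG, occurred in 11.3% against 6.02%, and AGATAA on either strand in 15.1% against 9.99%. Windows of 1 gene can overlap and were not matched to the rest for base composition, so these shares describe the letters only. The Ldha and Slc16a3 windows lie inside the spans that the deposited table gives for those genes, which begin further upstream.

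Total counts ran from 13402209 to 22986837 per library. From here on, values of single libraries are listed in the order of replicates 1, 2 and 3. Tmprss6 itself had 5, 4 and 0 counts (WT) and 0, 5 and 0 counts (KO), too few to check a label. The MEP genes Gata1 and Klf1 were well detected in each library, at 381 to 610 and 468 to 693 CPM (read counts scaled to the library size). Of the genes for markers gated in, Kit was at 316 to 1640 CPM and Slamf1 (CD150) at 22.4 to 53.6 CPM. Genes for markers gated out were also detected in each library, Eng (CD105) at 51.4 to 119 CPM and Itga2b (CD41) at 91.3 to 146 CPM. Fcgr3, an Fc gamma receptor gene, was at 182 CPM in KO replicate 2 and at most 18.3 CPM elsewhere. KO replicate 2 stood apart. The summed level of its 9 late erythroblast markers was 5220 CPM (elsewhere at most 378), and that of 10 neutrophil markers 3406 CPM (elsewhere at most 380.4). Summed levels of 10 macrophage and monocyte markers (2103 CPM, elsewhere at most 177.5) and of 9 eosinophil, basophil and mast cell markers (8419 CPM, elsewhere at most 796) were also highest there. None of these markers was at 0 in all libraries. The late erythroblast sum was also higher in the other KO libraries than in any WT library, at 228, 223 and 138.5 CPM in WT and 348.5, 5220 and 378 CPM in KO, and 9 of 9 of these markers had a log2 fold change above 0. In a bulk library, fewer cells of a type and less RNA per cell cannot be told apart.

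Lactate dehydrogenase A stood far above every other gene of the pathway in MEPs. Ldha (chromosome 7, 46841475 to 46855627) ranked 4th to 13th among all genes by count, depending on the library, and took 0.199% to 0.400% of all counts. Its level per length, in CPM per kb of the longest annotated transcript, was 1785, 1815 and 1129 (WT) and 2439, 1023 and 1379 (KO). The next genes on that scale were Aldoa, which splits the 6-carbon sugar, at 365 ± 26.5 in WT, Eno1, which makes phosphoenolpyruvate, at 307 ± 50.4, Tpi1, which interconverts the triose phosphates, at 266 ± 35.7, and Gapdh, the oxidizing step, at 198 ± 36.1 (SD, n = 3). These 4 levels were spaced closely, and neighbours in the order overlapped between libraries. Their order depends on the length used, which was 3289 nt for Gapdh and 1549 nt for Aldoa. Without scaling by length, Gapdh was the highest of the 4, with a WT mean of 650 CPM. Eno1 was at 622.5, Aldoa at 565 and Tpi1 at 427 CPM.

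The other genes that stand alone at their step were less abundant per length. Pgk1, the first ATP-yielding step, was at 89.0 ± 25.1 CPM per kb in WT, Gpi1, which makes fructose phosphate, at 68.3 ± 13.7, and Pgam1, the phosphoglycerate mutase, at 19.4 ± 3.94 (SD, n = 3). Bpgm, the enzyme of the bisphosphoglycerate branch, was at 13.9 ± 1.47. The 2 glucose transporters of the set had little transcript: Slc2a3 and Slc2a1 together reached 7.92 to 17.97 CPM per kb over the 6 libraries. Slc2a genes outside the set are not in this sum. The 4 PFKFB genes, whose enzymes set the level of the main activator of phosphofructokinase, together reached 5.40 to 12.8 CPM per kb, the lowest sum of any family. Pgm2, a phosphoglucomutase that links glycogen to glycolysis, was at 7.33 to 12.7 CPM per kb. The row of that name lies on chromosome 4 (99929414 to 99987294), a locus that RefSeq on GRCm38.p6 calls Pgm1.

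**Figure D1:**
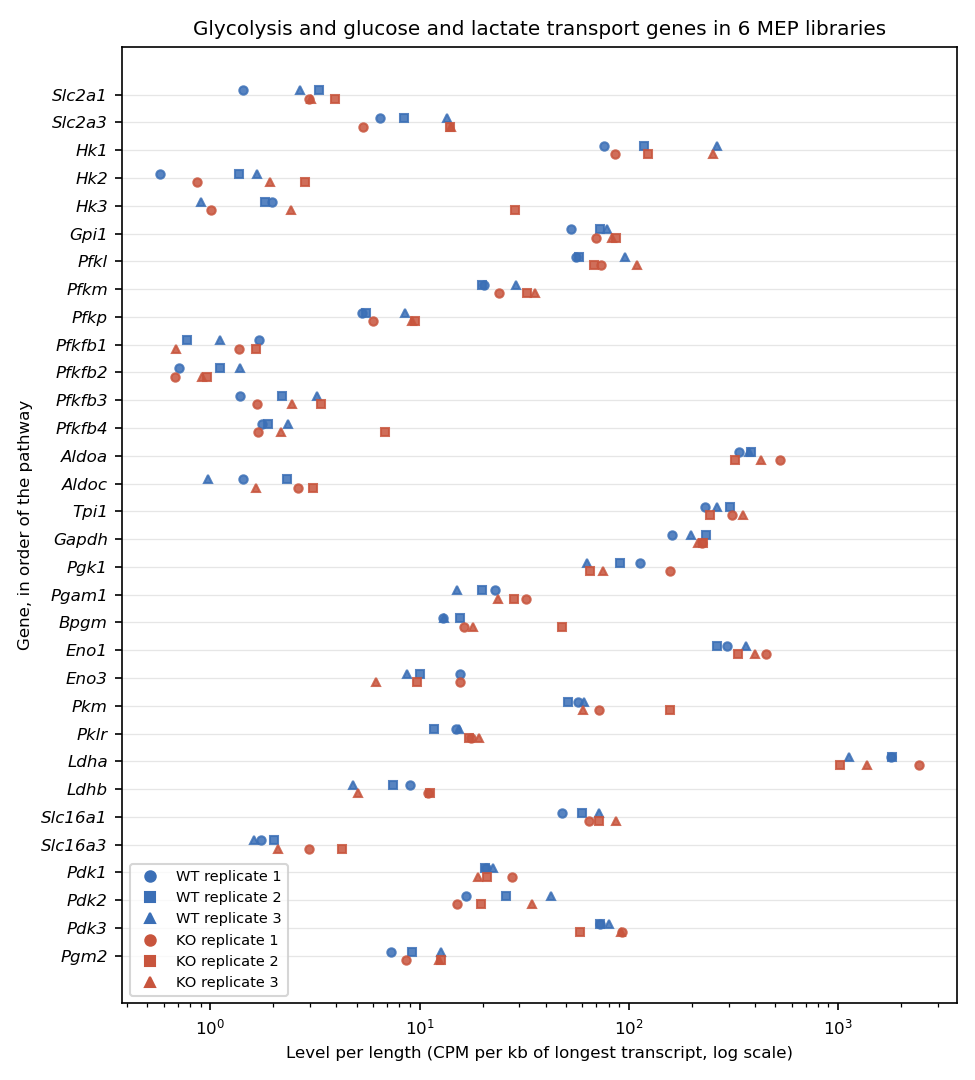
Level per length (CPM per kb of the longest transcript, log axis) of 32 genes in pathway order, 1 point per library, WT in blue and KO in red. Ldha lies highest, at 1023 to 2439, while the PFKFB genes, Hk2 and Aldoc lie below 10; Eno2 and Pdk4 are not drawn.

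MEPs used 1 paralog almost alone in 5 of the 10 families. Ldha took 98.9% to 99.6% of the lactate dehydrogenase level per length over the 6 libraries, with Ldhb, the heart form, as the rest. Aldoa took 99.0% to 99.7% of aldolase over Aldoc, the brain form. Eno1 took 94.9% to 98.5% of enolase, against 1.52% to 5.06% for the muscle form Eno3, and the neuronal form Eno2 had 0 counts in 4 libraries and 1 and 5 counts in KO replicates 1 and 2. Slc16a1, the monocarboxylate transporter MCT1, took 94.4% to 97.8% of the level of the 2 lactate transporters, and Slc16a3, the export form MCT4, took the rest. Hk1, the hexokinase of red cells and brain, took 96.8% to 99.0% in 5 libraries and 79.7% in KO replicate 2, where Hk3 took 18.5%. Hk2, the form of muscle and many tumours, stayed at 0.627% to 1.83%.

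In the other 5 families the level was divided among paralogs. Pfkl, named for liver, took 70.1 ± 1.77% of phosphofructokinase in WT, Pfkm, named for muscle, 23.4 ± 1.67%, and Pfkp, named for platelets, 6.51 ± 0.156% (SD, n = 3). Pkm held 80.1 ± 1.121% of the pyruvate kinase level in WT and Pklr, the form of the mature red cell, 19.9 ± 1.121%. Counts per gene cannot tell the M1 from the M2 isoform of Pkm. Slc2a3, the transporter GLUT3, took 79.1 ± 6.25% of the level of the 2 glucose transporters of the set in WT. Slc2a1, the GLUT1 of erythroid cells, took 20.9 ± 6.25%. Pdk3 led the pyruvate dehydrogenase kinases at 61.0 ± 5.31% in WT, ahead of Pdk2 at 21.9 ± 7.03% and Pdk1 at 17.1 ± 1.72%, and Pdk4 had 0 counts in 4 libraries, 6 in WT replicate 2 and 1 in KO replicate 2. In the PFKFB family no gene led clearly: in WT Pfkfb3 was at 33.97 ± 7.95% and Pfkfb4 at 30.8 ± 1.54%, and Pfkfb4 led over all 6 libraries (35.2%) only with KO replicate 2, where it took 53.3%.

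**Figure D2:**
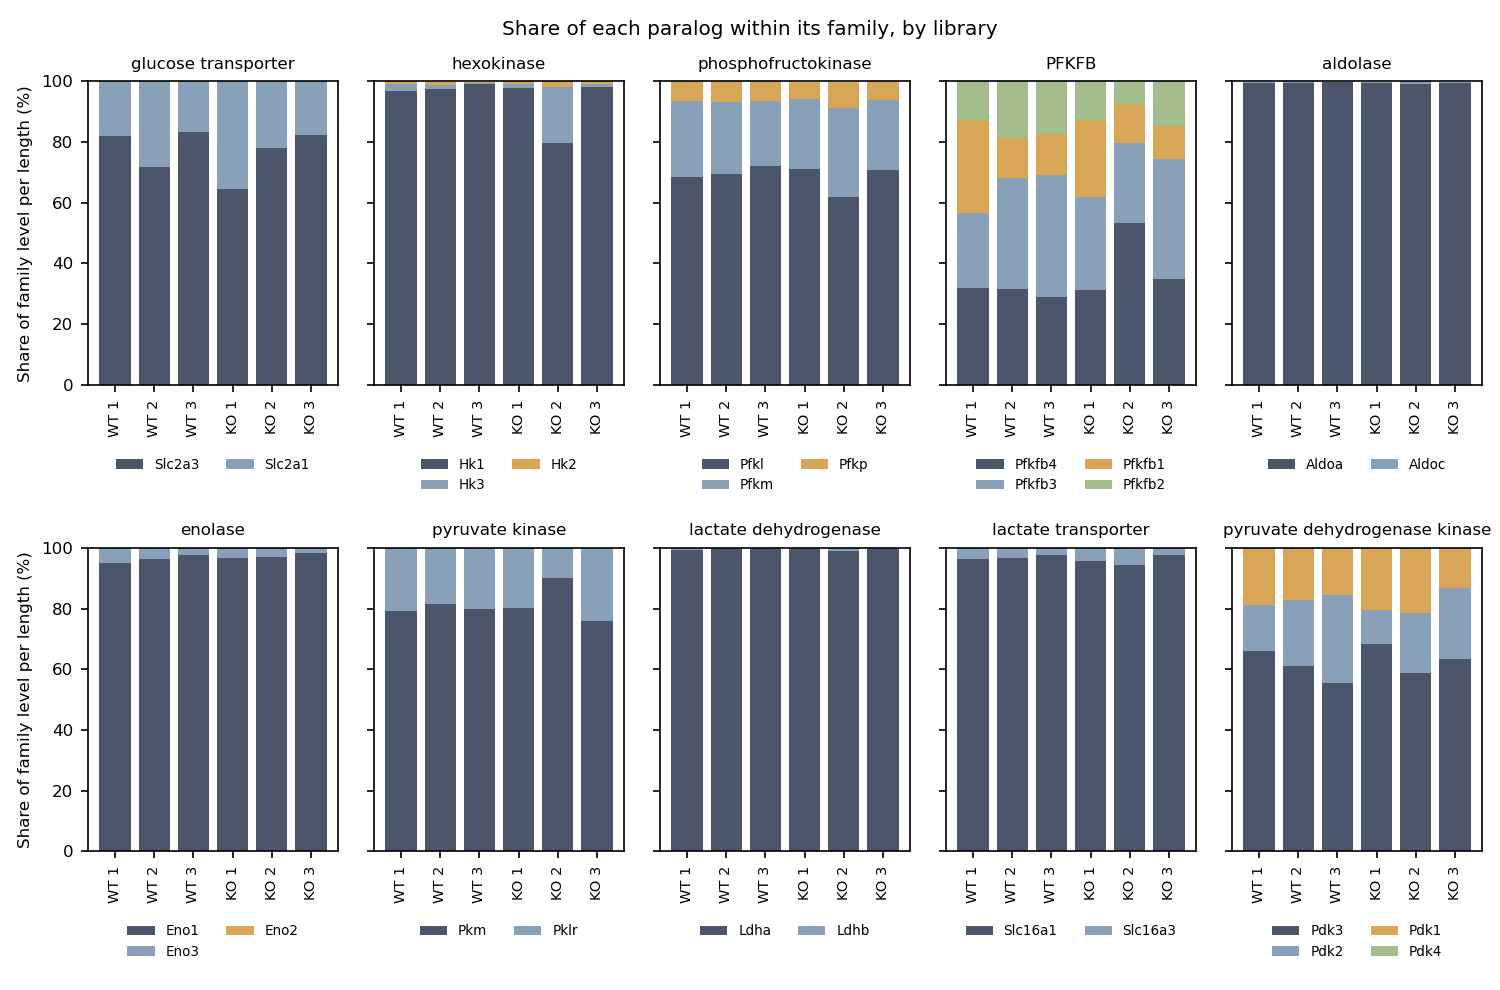
Stacked bars give the percent of a family's summed level per length that each paralog took, for 10 families and 6 libraries. Ldha, Aldoa, Eno1 and Slc16a1 fill nearly the whole bar in each library, and KO replicate 2 differs from the other libraries for hexokinase, PFKFB and pyruvate kinase.

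The share of the leading paralog did not differ detectably between genotypes in any of the 10 families (two-sided exact permutation tests, raw p from 0.3 to 0.8, each 0.8 after Benjamini-Hochberg adjustment over the 10 families). With 3 against 3 libraries the smallest possible p is 0.1, so these tests could not have passed 0.05. The differences, KO minus WT, ran from -5.77 percentage points for Hk1 to 8.998 for Pfkfb4. Without KO replicate 2 the difference was 0.363 points for Hk1, 0.905 in place of -2.16 for Pfkl, and -2.12 in place of 1.93 for Pkm, and for Pfkfb4 it was 2.245 points in place of 8.998. Within pairs, the share had 1 sign in 3 of 3 pairs for Aldoa (-0.0686, -0.351 and -0.130 points), Eno1 (1.73, 0.794 and 0.817) and Slc16a1 (-0.874, -2.32 and -0.194). The exact sign-flip permutation test over pairs gave p = 0.25 for these 3 families, the smallest that 3 pairs allow, and 0.5 to 1 for the other 7.

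No gene of the set passed the test between genotypes, although most were higher in KO. Of the 32 genes tested, edgeR, whose log2 fold change of KO over WT is the log2 ratio given below, called 0 as higher and 0 as lower at an adjusted p of 0.05 (background 0% of 13453 genes in each direction). At an unadjusted p under 0.05 there was 1 (Hk3), against 1.74% of all genes, and the adjusted p of edgeR was 1.00 for each of the 32. DESeq2 called 0 of the 32 (0.0297% of all genes higher, 0.0149% lower) with 3 at an unadjusted p under 0.05 (2.57%), and limma voom 0 with 0 (0.721%). The log2 fold change was above 0 for 29 of 32 genes (49.3% of all genes) with a median of 0.25, where the median of all genes was -0.0048, and it was below 0 for Pfkfb2, Eno3 and Pdk2. With library totals alone Ldha also came out below 0, which left 28 of 32 above (47.5% of all genes). Since the genes were chosen with earlier results of these libraries in view, the counts describe the set and are not separate evidence for its direction. The medians within the pairs of libraries that share a replicate number were 0.34, 0.37 and 0.16 for pairs 1, 2 and 3, with 25, 23 and 22 of 32 genes higher in KO.

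Higher in KO in 3 of 3 pairs were 14 of the 32 genes, where 11.5% of all genes were, and lower in 3 of 3 pairs were Pfkfb2, Eno3 and Pdk2, where 13.3% of all genes were. The 14 genes were the transporters Slc2a1, Slc16a1 and Slc16a3, the 3 phosphofructokinases, the hexokinase Hk2, and Gpi1, Aldoc, Pgam1, Bpgm, Eno1, Pklr and Ldhb. The 3 phosphofructokinases had log2 fold changes of 0.26 (Pfkl), 0.42 (Pfkm) and 0.36 (Pfkp), each with an SE of 0.29 to 0.34. Slc16a1 stood at 213, 265 and 319 CPM in WT and at 286, 319 and 382 CPM in KO. Its groups overlapped, while each KO library lay above the WT library of its number (log2 ratio 0.31, SE 0.28). Eno1 likewise had 595, 537 and 736 CPM in WT and 916, 672 and 814 CPM in KO (log2 ratio 0.36, SE 0.29).

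**Figure D3:**
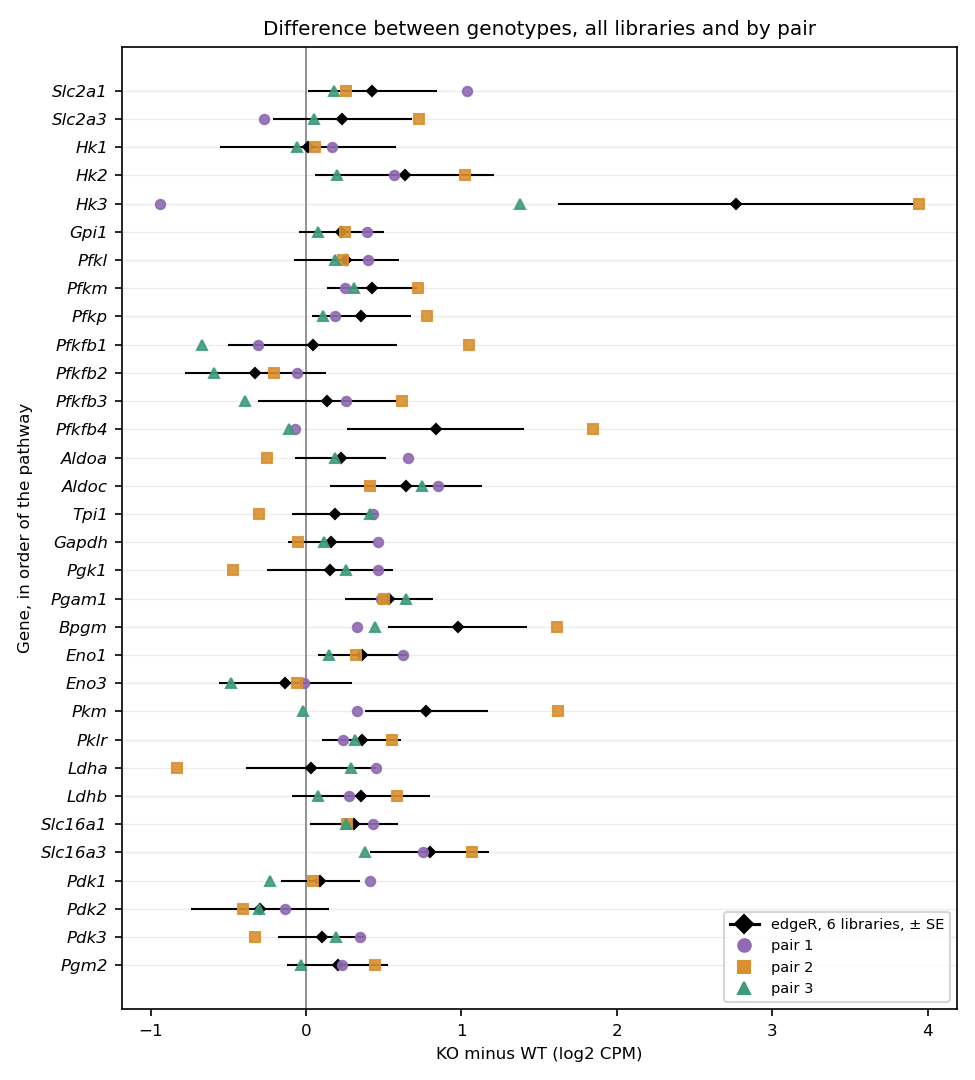
Log2 difference between KO and WT for the 32 genes tested: black diamonds are the edgeR fold change over 6 libraries with its SE, and coloured points the difference within each pair of libraries of the same number. Most diamonds lie right of 0, pair 2 lies left of 0 for Ldha, Pgk1, Tpi1, Aldoa and Pdk3, and far right for Hk3, Pfkfb4, Pkm and Bpgm.

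All 3 KO libraries lay above all 3 WT libraries for 4 of the 32 genes, Pgam1, Bpgm, Pklr and Slc16a3 (2.27% of all genes), and below for 0 (1.75% of all genes). Pgam1 (chromosome 19, 41911871 to 41918664) was at 40.8, 35.4 and 26.9 CPM in WT and at 57.0, 50.1 and 42.0 CPM in KO. The gap between the groups was small, with WT replicate 1 just under KO replicate 3, but the 3 pairs differed by a like amount, 0.48, 0.50 and 0.64 on the log2 scale. Its log2 fold change was 0.53 (SE 0.28). A row of a near-identical copy held at most 2.80% of the Pgam1 counts of a library.

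Slc16a3 (chromosome 11, 120948480 to 120960868) was at 7.56, 8.75 and 6.97 CPM in WT and at 12.8, 18.5 and 9.11 CPM in KO. The KO libraries were spread widely, and the lowest lay close to the highest WT library (log2 ratio 0.80, SE 0.38, and 0.50 without KO replicate 2). Pklr (chromosome 3, 89136142 to 89146784) was at 43.5, 33.97 and 44.8 CPM in WT and at 51.3, 49.8 and 55.9 CPM in KO (log2 ratio 0.36, SE 0.25). The gene Hcn3, which overlaps it on the opposite strand and shares 711 identical nt of transcript, held up to 9.13% of the Pklr counts of a library. The summed late erythroblast markers were likewise higher in all 3 KO libraries than in all 3 WT libraries, as they were beside Pgam1, Slc16a3 and Bpgm, and their part in these 4 results was not tested. Bpgm (chromosome 6, 34476207 to 34505613) was at 28.7, 34.6 and 29.2 CPM in WT and at 36.1, 106 and 39.8 CPM in KO. Its log2 fold change of 0.98 (SE 0.45) was 0.30 without KO replicate 2, the library with the highest late erythroblast markers.

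**Figure D4:**
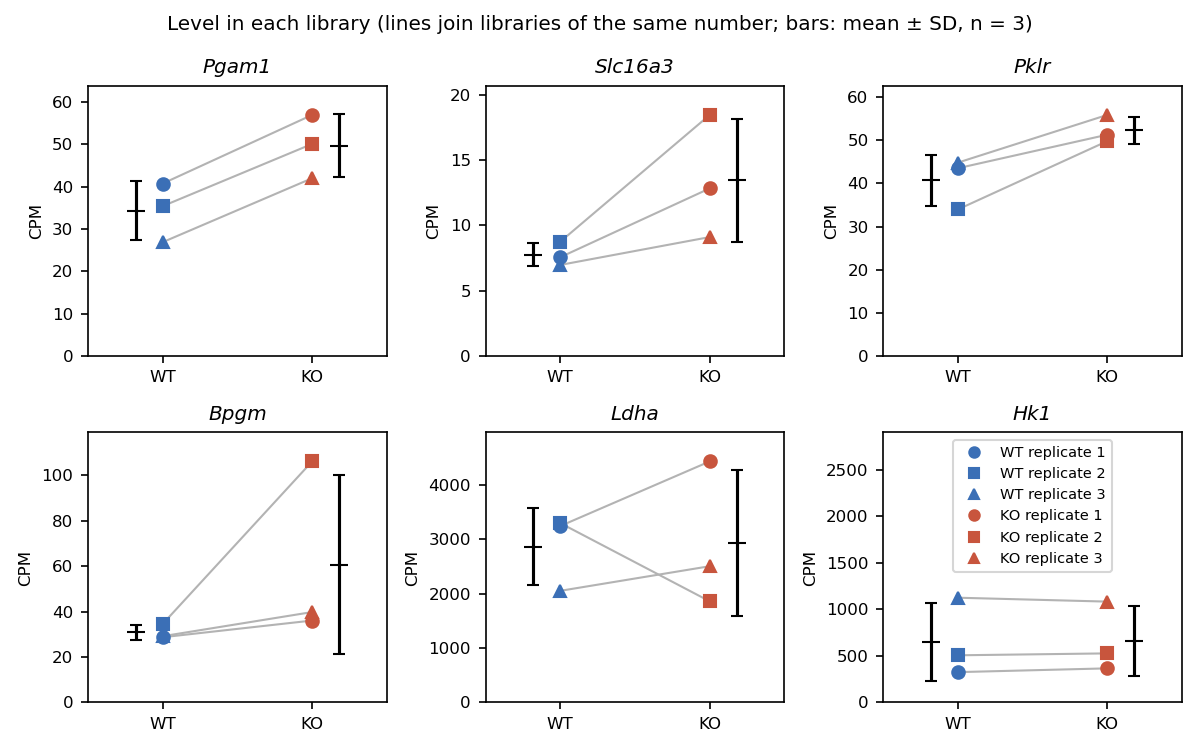
CPM in each library for 6 genes, with lines between libraries of the same number and bars for the mean ± SD of 3 libraries. Pgam1, Slc16a3, Pklr and Bpgm have no overlap between WT and KO, Ldha crosses in pair 2, and Hk1 follows the replicate number.

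Higher in KO in pairs 1 and 3 and lower in pair 2 were 6 of the 32 genes (16.5% of all genes): Aldoa, Tpi1, Gapdh, Pgk1, Ldha and Pdk3, a share near that of all genes. Ldha was at 3240, 3294 and 2050 CPM in WT and at 4427, 1857 and 2502 CPM in KO, so that KO held both the highest and the lowest library. Its log2 fold change over 6 libraries was 0.034 (SE 0.42), with pair differences of 0.45, -0.83 and 0.29, and it was -0.02 with the replicate number as a block. Tpi1 was at 373, 487 and 422 CPM in WT and at 502, 395 and 562 CPM in KO (log2 ratio 0.19, SE 0.28). Pgk1 was at 207, 165 and 116 CPM in WT and at 286, 119 and 138 CPM in KO (0.15, SE 0.41), with KO replicate 1 well above the rest. Aldoa had 519, 595.5 and 582 CPM in WT against 817, 500 and 662 CPM in KO (0.22, SE 0.29), so that its KO libraries lay on both sides of the WT range. Gapdh, often used as a reference gene, had 532, 769 and 650 CPM in WT against 733, 741 and 704 CPM in KO (0.16, SE 0.28). Of its copies, 79 of the 89 near-identical rows also had counts, together at most 3.32% of its own. Pdk3 had 154.6, 154.6 and 171 CPM in WT against 197, 123.3 and 195 CPM in KO (0.10, SE 0.28).

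With both libraries numbered 2 left out and the replicate number as a block, 25 of the 32 genes had a log2 fold change above 0 (48.5% of all genes), with a median of 0.27. None passed the threshold (0 of 32 in each direction, background 0.258% higher and 0.604% lower). An unadjusted p under 0.05 was reached by 13 of the 32 genes, all higher in KO, where 5.45% of 13572 genes were higher at that level and 13.2% passed it in either direction. The smallest adjusted p-values of edgeR in this fit were 0.053 for Ldha (log2 ratio 0.37, SE 0.084), 0.057 for Tpi1 (0.42, SE 0.098) and 0.095 for Aldoa (0.42, SE 0.11). Over the other settings the adjusted p of these 3 genes reached 1.00. Pgam1 had a log2 fold change of 0.56 there (SE 0.15, edgeR adjusted p = 0.11) and Eno1 0.38 (SE 0.11, adjusted p = 0.13). In the block fit of all 6 libraries 4 genes had an unadjusted p under 0.05 (Pfkm, Pgam1, Bpgm and Slc16a3), where 3.54% of all genes did, and 0 passed.

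A second group of genes stood out in KO replicate 2. In that library 4 of the 32 genes, Hk3, Pkm, Bpgm and Pfkfb4, had more than 2 times the level of any other library, as did 7.13% of all genes. Of these 4, Bpgm alone also lay above all WT libraries in the other KO libraries. Hk3, a hexokinase best known from myeloid cells, was at 6.32, 5.86 and 2.92 CPM in WT and at 3.24, 91.9 and 7.79 CPM in KO. Its log2 fold change of 2.77 (SE 1.15) was 0.13 without KO replicate 2. Pkm was at 139, 124.5 and 149 CPM in WT and at 175, 383 and 147 CPM in KO (log2 ratio 0.77, SE 0.40), and 0.22 without that library. Pfkfb4, a hypoxia-induced member of its family, was at 6.18, 6.55 and 8.18 CPM in WT and at 5.87, 23.8 and 7.57 CPM in KO (0.83, SE 0.57), and -0.055 without it. The neutrophil marker Elane was at 677 CPM there against at most 81.8 CPM elsewhere and the macrophage marker C1qb at 330 CPM against at most 30.85 CPM. Whether transcripts of other cells account for these 4 genes was not tested. In all, 12 of the 32 genes had their highest level in that library (23% of all genes), while Ldha, Aldoa and Pdk3 had their lowest (18.6% of all genes).

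**Figure D5:**
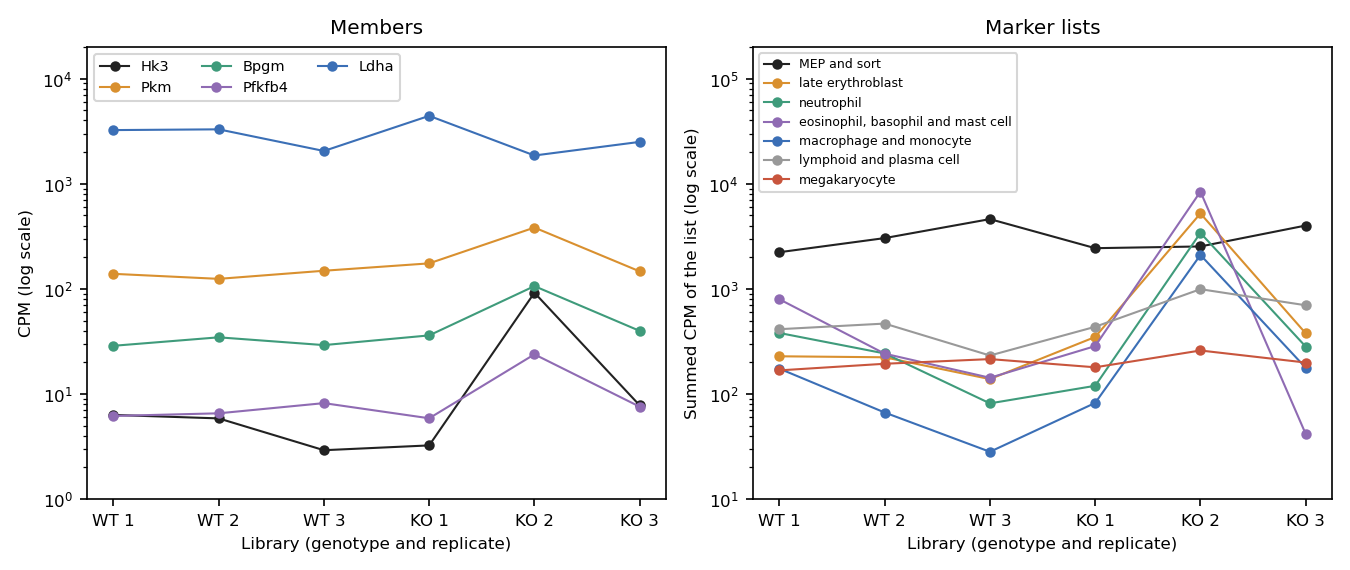
Left, CPM of 5 genes by library on a log axis; right, summed CPM of 7 marker lists on a log axis. KO replicate 2 is the peak for Hk3 (91.9 CPM), Pkm, Bpgm and Pfkfb4 and for the late erythroblast, neutrophil, eosinophil and macrophage lists, and the lowest library for Ldha (1857 CPM).

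The replicate number separated the libraries more than the genotype did for many genes of the set, but less often than over all genes. It took more than 50% of the variance of log2 CPM in 18 of the 32 genes, a smaller share than the 74.5% of all genes. The genotype did so in 3 of 32 (4.36% of all genes), which were Pgam1, Pklr and Slc16a3. The median taken by the number was 56.17% in the set and 74.35% over all genes. Since the number has more levels than the genotype, it takes more variance even where neither has an effect. Hk1 (chromosome 10, 62268855 to 62379908) was the clearest case, with 99.4% of its variance by number. It stood at 325, 506 and 1125 CPM in WT and at 366, 527 and 1083 CPM in KO, and the pair differences were 0.17, 0.058 and -0.055 on the log2 scale. The progenitor receptor gene Kit went the same way, with 392, 822 and 1640 CPM in WT and 316, 578 and 1246 CPM in KO, and its part in the level of Hk1 was not tested. Pdk2 followed the number too, with 37.4, 58.2 and 95.1 CPM in WT and 34.1, 44.0 and 77.1 CPM in KO (log2 ratio -0.30, SE 0.44). Eno3 ran the other way, with 24.5, 15.8 and 13.6 CPM in WT and 24.3, 15.2 and 9.70 CPM in KO (-0.13, SE 0.43). What the numbers stand for is not given in the labels.

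The other genes of the set overlapped between genotypes. Among the genes of glucose entry, Slc2a1 ranged from 4.66 to 10.75 CPM (WT) and from 9.66 to 12.9 CPM (KO) (log2 ratio 0.43, SE 0.42). Slc2a3 was at 40.6, 52.9 and 84.7 CPM in WT and at 33.7, 87.7 and 87.9 CPM in KO (0.23, SE 0.45), lowest in KO replicate 1. Hk2 ranged from 3.18 to 9.18 CPM in WT and from 4.77 to 15.6 CPM in KO. Gpi1 was at 169, 233 and 253 CPM in WT and at 222, 277 and 267 CPM in KO (log2 ratio 0.23, SE 0.27). Pfkl was at 208, 216 and 358 CPM in WT and at 275, 254 and 407 CPM in KO, highest in both libraries numbered 3. Pfkm ranged from 57.0 to 82.8 CPM in WT and from 69.2 to 102.5 CPM in KO, and Pfkp from 45.9 to 73.6 and from 52.2 to 82.8 CPM. The low PFKFB genes Pfkfb1, Pfkfb2 and Pfkfb3 stayed between 1.84 and 16.2 CPM in all 6 libraries, with log2 fold changes of 0.043, -0.33 and 0.14. Of the minor paralogs, Aldoc ranged from 2.70 to 6.48 CPM (WT) and from 4.63 to 8.645 CPM (KO) (0.64, SE 0.49), and Ldhb at 6.26 to 11.8 and 6.61 to 14.6 CPM (0.35, SE 0.44). Pdk1 lay between 98.6 and 144 CPM over the 6 libraries. Pgm2 was at 18.5, 23.3 and 32.0 CPM in WT and at 21.8, 31.8 and 31.4 CPM in KO (0.20, SE 0.33). Genes that overlap members on the opposite strand had sizeable counts of their own: Pitrm1 over Pfkp, Apex2 over Pfkfb1 and Yod1 over Pfkfb2 had more counts than the member in each of the 6 libraries, and Senp1 over Pfkm and Itgb3bp over Pgm2 in some. The library kits do not mark the strand, so the counts of these 5 genes are uncertain. The same holds for Hk3, where Unc5a on the opposite strand had 21.9% to 41.5% of the Hk3 counts in 5 libraries and 8.05% in KO replicate 2, and to a lesser extent for Pklr with Hcn3.

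Genes around glycolysis gave no call, and Txnip, Hif1a, Myc and Trp53 below were chosen after their values were seen. Of 59 tested genes from 6 lists outside the set, edgeR called 0 as higher and 0 as lower, and 34 had a log2 fold change above 0 with a median of 0.039. The glycolysis enzymes outside the set were above 0 in 6 of 11 and the genes of pyruvate entry into mitochondria in 5 of 11, among them Pcx, pyruvate carboxylase (log2 fold change 0.59). In the pentose phosphate route 5 of 8 were above 0, with G6pdx, its first enzyme, at 0.21 and Pgd at 0.24, and in the glycogen list 5 of 8, with Ugp2 at 0.27. Of the transporters and chaperones 6 of 8 were above 0, led by the sugar transporter gene Slc2a6 (2.62, SE 1.31), Emb, a chaperone of monocarboxylate transporters (1.16, SE 0.79), and the monocarboxylate transporter gene Slc16a7 (0.71, SE 0.55). Each of these 3 was higher in 3 of 3 pairs and highest in KO replicate 2, but some pairs hardly differed. Slc16a7 was at 2.85 CPM in WT replicate 3 and at 2.87 CPM in KO replicate 3. Slc2a6 was low, at 0 to 1.35 CPM outside KO replicate 2. In the fit of pairs 1 and 3 the log2 fold changes were 1.37 for Slc2a6, 0.50 for Emb and 0.086 for Slc16a7. Txnip, a brake on glucose uptake, was lower in 3 of 3 pairs, at 143, 434 and 410 CPM in WT and at 112, 250 and 285 CPM in KO (log2 ratio -0.61, SE 0.51). Of the 13 regulators tested, 3 were lower in 3 of 3 pairs, where 13.3% of all genes were. They were Myc (log2 ratio -0.14, SE 0.45), Mycn (-0.25, SE 0.26) and Trp53 (-0.12, SE 0.36). Higher in 3 of 3 pairs was 1 regulator, where 11.5% of all genes were. The regulators were above 0 in 7 of 13. Among them Egln1, a prolyl hydroxylase that marks hypoxia-inducible factors for decay and that these factors induce, was the 1 gene of the 59 whose KO libraries all lay above WT (2.27% of all genes), at 18.6, 4.89 and 14.0 CPM in WT and 25.4, 30.4 and 33.9 CPM in KO (log2 ratio 1.25, SE 0.48), and Hif1a itself had a log2 fold change of 0.26 (SE 0.49).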

How the data were processed

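Per the labels' protocols, cDNA of sorted MEPs was made with the SMART-Seq v4 kit and sequencing libraries with Nextera XT. The authors deposited read counts per Ensembl gene, as unscaled whole numbers. The submitters' processing notes name STAR 2.5.3a, FastQC 0.11.5 and edgeR, with GRCm38.p3 and GRCh38.p3 as builds. The sources used here do not give the read counter, its strand setting or how it handled multimapping reads, which makes counts of genes with copies or overlaps uncertain. Coordinates are those of the deposited table, and 31 of the 34 genes had the same position in GENCODE M21.

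The 34 genes and all lists were chosen with earlier results of these data known. Each gene of the set is reported, with those leading a family, alone at a step or without overlap in full. Other lists give up to 3 genes of smallest p. Txnip, Hif1a, Myc and Trp53 were added after their values were seen. Genes were filtered with filterByExpr (minimum count 10, minimum total 15), which kept 13453, and scaled by TMM. Genotypes were compared with the quasi-likelihood test of edgeR 4.0.16 over 6 libraries, two-sided, with Benjamini-Hochberg adjustment over all genes tested (adjusted p under 0.05). SE is that of the log2 fold change, KO over WT. Pair differences use log2 CPM with a prior count of 2. Levels per length divide CPM by the longest GENCODE M21 transcript, and near-identical copies are transcripts of other genes matching over at least 200 nt at 95% identity (BLAST 2.17.0). Alternatives were a replicate block, the pairs 1 and 3 alone, DESeq2 1.42.0, limma 3.58.1 voom, other scalings, no filter, other lengths and each library left out in turn. The edgeR fits of 6 libraries with and without the block, voom and DESeq2 had first been tested on simulated data. The simulation held no replicate effect, and the other alternatives were not tested in this way. Between libraries of the same number, deviations from the group means correlated across genes at 0.53, 0.16 and 0.63 for numbers 1, 2 and 3. Correlations between unlike numbers are not given, so these values alone do not settle whether the numbers pair the libraries. The p-values of the fit without a block measure the spread between pools of 3 mice, which includes differences between replicate numbers. The number took a median of 74.35% of the variance of log2 CPM over all genes. A depth of at least 13402209 counts puts 3 counts at 0.131 to 0.224 CPM.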

Additional observations from a re-analysis of the deposited data

How the results depend on the processing

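No gene of the set passed the threshold under any alternative run: of 416 values of single genes 0 were called. Over all genes, 117 were called with the replicate block on the pairs 1 and 3 and 6 by DESeq2, against 0 otherwise. The replicate block on all 6 libraries called 0 genes and changed no other call. The median log2 fold change of the set was 0.25, 0.26 with the replicate block, and 0.16 to 0.44 when each library was left out, with the highest value, 0.44, without WT replicate 3. Leaving out 1 library turned the direction of 6 of the 10 differences in the share of the leading paralog. Over the 6 libraries left out in turn they ran from -7.85 to 0.997 points for Slc2a3 (turned without KO replicate 1), from -8.95 to 0.363 points for Hk1 (turned without KO replicate 2), from -3.73 to 0.905 points for Pfkl (turned without KO replicate 2), from -2.12 to 5.07 points for Pkm (turned without KO replicate 2), from -0.320 to 0.0387 points for Ldha (turned without KO replicate 2) and from -0.0813 to 5.23 points for Pdk3 (turned without WT replicate 3). None of the 59 genes outside the set was called under any alternative run. Levels per length depend on the longest transcript being the one in use, which was not measured, and both the 3 libraries per genotype and the depth limit precision.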
